A study of Mus musculus with 1 sample.

Results

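The glutathione S-transferase genes *Gstm1*, *Gstm2*, *Gstm5*, *Gstm6*, *Gstm7*, *Gsta4*, *Gstp1*, *Gsto1*, *Mgst1* and *Mgst3* were followed through the cell types of the fetal mouse testis. These 10 genes are 10 of the 22631 features of the count table, and each matched 1 row. *Gstm6* and *Gstm1* were chosen by their level in the Sertoli cells of this same library, where they are among the leading genes, so that level describes the choice and was not tested. The other members are further glutathione S-transferase genes, added with the same results known. RNA of single cells was captured in 1 control library of pooled whole testes, which the paper counts as 12 control testes. The label of the library gives the genotype WT and embryonic day 14.5. The methods describe controls as *Nr5a1* L2/L2 fetuses that carry the conditional allele of *Nr5a1* without a Cre transgene, on a mixed C57BL/6 and 129/SvPass background, and the text names E13.5 beside E14.5. Because there was 1 library of pooled testes, no spread between animals could be measured and no test was made.

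Glutathione S-transferases join the tripeptide glutathione to electrophilic compounds, such as products of lipid peroxidation, steroids and xenobiotics, and thereby make them soluble and ready for export. The soluble enzymes fall into classes named after Greek letters, of which mu (*Gstm*), alpha (*Gsta*), pi (*Gstp*) and omega (*Gsto*) are represented here, whereas *Mgst1* and *Mgst3* encode small membrane enzymes of the MAPEG family with an unrelated fold. Sertoli cells are the supporting cells that enclose the germ cells in the testis cords, and Leydig cells are the steroid-producing cells between the cords.

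The mu-class genes lie side by side on chromosome 3 of GRCm38. From left to right the GENCODE annotation places *Gstm5* at chr3:107895821-107898686 on the plus strand, then, all on the minus strand, *Gstm7* at chr3:107926334-107931817, *Gstm6* at chr3:107938847-107943749, *Gstm3*, *Gstm2* at chr3:107981702-107986453, *Gstm1* at chr3:108012255-108017973 and *Gstm4*. Their upstream sequences are shown because *Gstm1*, *Gstm2*, *Gstm6* and *Gstm7* were high together in Sertoli-like cells while their neighbour *Gstm5* was not. Each line gives the gene's strand 5′ to 3′, from 250 bases before the RefSeq start site (GRCm38.p6) and ending before the first base that GENCODE puts in the gene, which left 250 bases for *Gstm7* (chr3:107931818-107932067) and *Gstm1* (chr3:108017974-108018223), 235 for *Gstm6* (chr3:107943750-107943984) and 217 for *Gstm2* (chr3:107986454-107986670) and *Gstm5* (chr3:107895604-107895820). Capitals mark the motifs that were searched on both strands.
Gstm5: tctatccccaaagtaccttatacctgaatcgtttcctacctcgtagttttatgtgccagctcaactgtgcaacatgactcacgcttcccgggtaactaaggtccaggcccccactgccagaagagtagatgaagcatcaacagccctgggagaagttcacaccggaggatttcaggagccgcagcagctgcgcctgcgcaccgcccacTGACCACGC
Gstm7: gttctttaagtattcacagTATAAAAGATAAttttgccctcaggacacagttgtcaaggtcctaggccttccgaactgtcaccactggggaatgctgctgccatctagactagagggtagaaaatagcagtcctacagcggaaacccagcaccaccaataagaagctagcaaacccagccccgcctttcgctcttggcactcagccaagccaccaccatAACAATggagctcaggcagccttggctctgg
Gstm6: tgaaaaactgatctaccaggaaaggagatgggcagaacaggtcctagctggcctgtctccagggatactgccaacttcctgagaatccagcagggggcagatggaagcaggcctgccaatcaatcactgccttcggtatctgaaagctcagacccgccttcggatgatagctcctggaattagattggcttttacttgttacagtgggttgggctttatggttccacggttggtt
Gstm2: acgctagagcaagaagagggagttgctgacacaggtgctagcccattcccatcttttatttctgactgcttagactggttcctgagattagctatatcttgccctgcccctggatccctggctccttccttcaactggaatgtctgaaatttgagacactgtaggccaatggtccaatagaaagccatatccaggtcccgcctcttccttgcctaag
Gstm1: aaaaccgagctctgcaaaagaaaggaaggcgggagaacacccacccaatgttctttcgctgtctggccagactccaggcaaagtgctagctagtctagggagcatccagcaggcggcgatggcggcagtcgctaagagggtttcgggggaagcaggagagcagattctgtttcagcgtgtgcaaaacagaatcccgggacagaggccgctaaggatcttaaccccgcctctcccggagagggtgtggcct

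The letters searched were the antioxidant response element TGACNNNGC, which binds NRF2, the NR5A1 motif AAGGTCA, the SOX motif AACAAT, the GATA motif AGATAA and the TATA box TATAAA. Of the 250 bases before *Gstm1*, *Gstm2* and *Gstm6*, none held any of them. Positions count the bases from the RefSeq start back to the motif's first base. The promoter of *Gstm7* held AACAAT at -31 and, at its far end, TATAAA at -231 and AGATAA at -225, which adjoin and share no base. The antioxidant response element stood at -42 of *Gstm5*, the member of the row that was not high in Sertoli-like cells, and at -56 of *Mgst1*, whose RefSeq start lies 211 bases inside the GENCODE gene. The promoters of *Gstm3* and *Gstm4*, which are in the row but not members and were not high in Sertoli-like cells either, held none of the motifs. Over the 32851 RefSeq promoters of the same length, TGACNNNGC was found in 10.2%, AAGGTCA in 4.08%, AACAAT in 9.42%, AGATAA in 9.99% and TATAAA in 12.4%. Promoters of 9 of the 10 members were in the table, and that of *Gsta4* was not.

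The coding sequences of *Gstm1*, *Gstm2*, *Gstm6* and *Gstm7*, each of 654 bases, were between 82.6% and 86.2% identical to one another, and that of *Gstm5* was between 69.6% and 71.1% identical to theirs. Because such copies can share reads, every stretch of 90 bases in the last 500 bases of each main transcript was looked up in all other GENCODE transcripts. For 9 members no stretch occurred in another gene. For *Gstp1* 31.9% of the stretches were its own, the rest being shared with *Gstp2*, 98.1% identical in coding sequence, and with the pseudogene *Gstp-ps*, so that the level of *Gstp1* is uncertain. The other members lie apart from the row, *Gsta4* at chr9:78182774-78209349, *Gstp1* at chr19:4035407-4037985, *Gsto1* at chr19:47854970-47864790, *Mgst1* at chr6:138140316-138156755 and *Mgst3* at chr1:167371966-167393841. *Gstm5* overlaps *4933431E20Rik* and *Gsto1* overlaps *Cfap43*, both on the opposite strand.

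Of 5421 barcodes, 3819 cells were kept, with 54861621 unique molecular identifiers (UMIs) and a median of 12105 UMIs per cell. They fell into 16 clusters, which were given a class from marker lists, and 1 cluster of 89 cells stayed unnamed. A pair of clusters carried the Sertoli-like name, cluster 0 with 856 cells and cluster 11 with 63, together 919 cells and 24.1% of those kept, and all 11 Sertoli markers were at least 2-fold higher in them than in the remaining cells. *Gstm6* stood among the 10 leading genes of both. Levels are given as CPM, the UMIs of a gene per 1000000 UMIs of all genes, summed over the cells of a class, with exact Poisson 95% intervals, and shares before thinning have exact Clopper-Pearson 95% intervals. These cover counting error only and not the difference between animals or between cells.

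**Figure D1:**
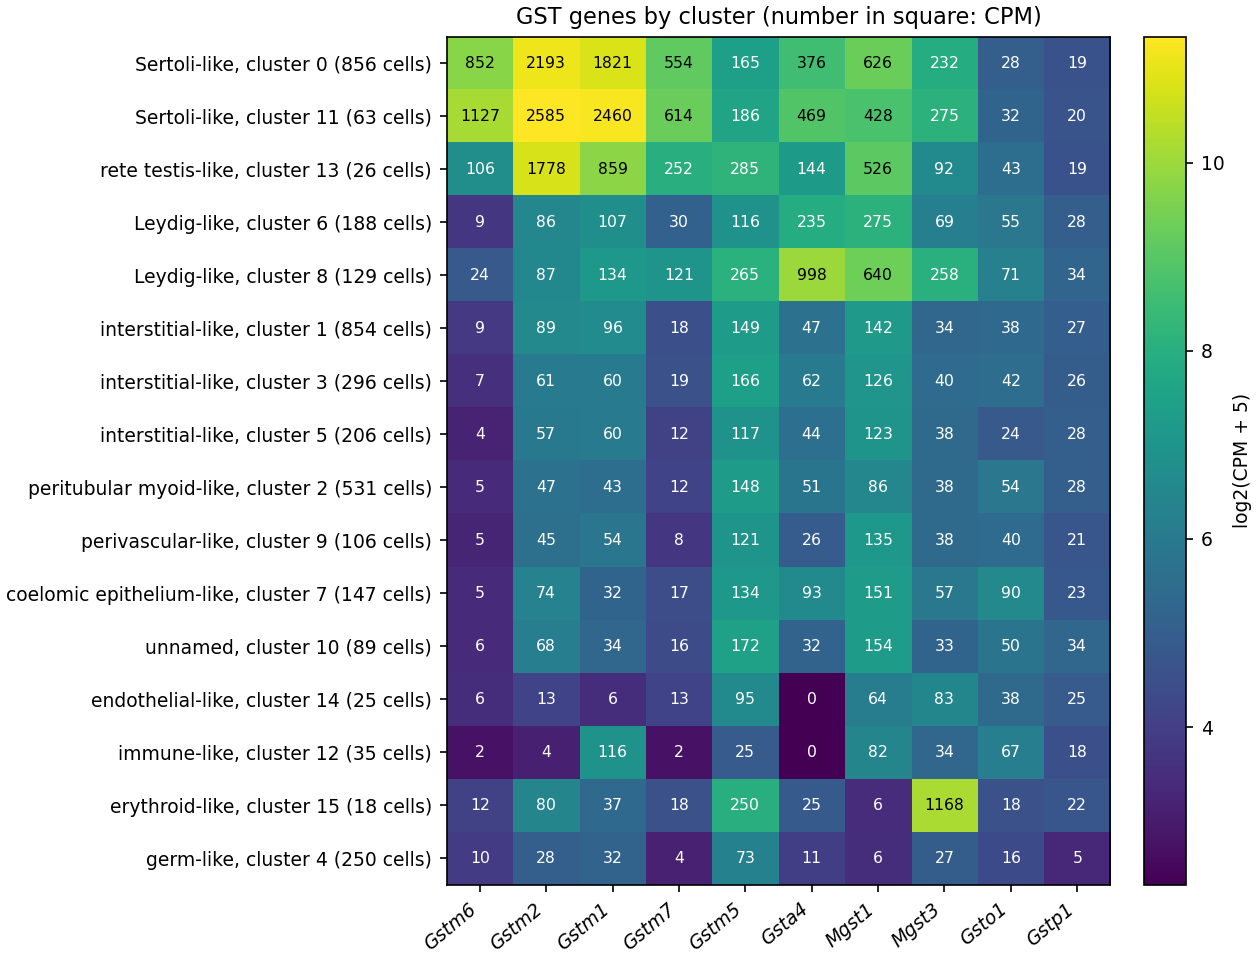
Level of the 10 genes in each of the 16 clusters. The colour gives log2(CPM + 5) and the number in each square the CPM; rows are clusters with their class and number of cells. The 4 mu-class genes on the left were high in both Sertoli-like clusters and the rete testis-like cluster, *Gsta4* in Leydig-like cluster 8 and *Mgst3* in the erythroid-like cluster.

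In Sertoli-like cells, 7 of the 10 genes were at least 2-fold higher than in all other kept cells, where 8.72% of the 12214 genes with at least 100 UMIs were, and 0 of the 10 were at least 2-fold lower, where 10.4% of genes were. These ratios were formed after adding 5 CPM to both levels, and their median was 1.90 on the log2 scale over the 10 genes and -0.05 over all genes tested. The 7 were *Gstm1*, *Gstm2*, *Gstm6*, *Gstm7*, *Gsta4*, *Mgst1* and *Mgst3*, all of which were among the variable genes used for clustering. When the cells were clustered without the 10 genes, the same 7 were at least 2-fold higher. *Gstm6* and *Gstm1* were chosen for this difference, and among the other 8 genes 5 were at least 2-fold higher, with a median of 1.65. These counts describe the chosen genes and support nothing beyond that.

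*Gstm6* had the largest share of its UMIs in Sertoli-like cells of the 10 genes. Its level was 857 CPM (841 to 873) in Sertoli-like cells and 9.55 CPM (8.64 to 10.5) in all other cells, a log2 ratio of 5.89, which ranked 7 among the 12214 genes. Of its 11624 UMIs in kept cells, 96.6% lay in Sertoli-like cells (96.2% to 96.9%), which held 23.9% of the UMIs of all genes.

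*Gstm2* had 2201 CPM (2175 to 2226) in Sertoli-like cells and 75.2 CPM (72.6 to 77.9) in the other cells, a log2 ratio of 4.78 and rank 18. *Gstm1* had 1834 CPM (1810 to 1857) in Sertoli-like cells and 71.5 CPM (69.0 to 74.1) outside them, a log2 ratio of 4.59 and rank 25. *Gstm7* had 555 CPM (542 to 568) in Sertoli-like cells and 23.9 CPM (22.4 to 25.4) outside them, a log2 ratio of 4.28 and rank 31. Sertoli-like cells thus held 90.2% of the UMIs of *Gstm2*, 88.9% of those of *Gstm1* and 87.9% of those of *Gstm7*.

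The mu-class gene at the left end of the row behaved otherwise. *Gstm5* had 166 CPM (159 to 173) in Sertoli-like cells and 137 CPM (133 to 141) in the other cells, a log2 ratio of 0.27. *Gstm3*, which lies between *Gstm6* and *Gstm2* and whose coding sequence is 89.4% identical to that of *Gstm1*, had 91 UMIs in all kept cells. Of these, 74 were in germ-like cells (8.4 CPM, 6.59 to 10.5) and 17 in Sertoli-like cells (1.3 CPM, 0.756 to 2.08), and no other class had any. *Gstm4*, at the right end, had 216 UMIs in all.

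**Figure D2:**
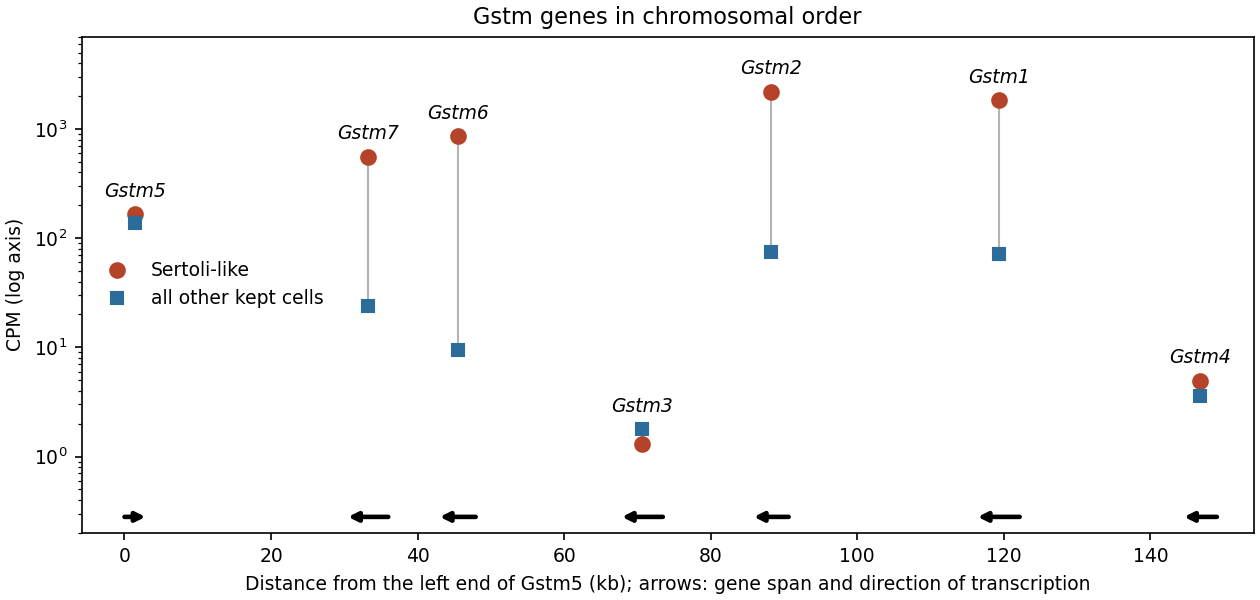
Level of the 7 mu-class genes in Sertoli-like cells (circles) and in all other kept cells (squares), in CPM on a log axis, against distance from the left end of *Gstm5* in kb; arrows show each gene's span and direction of transcription. *Gstm7*, *Gstm6*, *Gstm2* and *Gstm1* are far apart in the 2 sets of cells, while *Gstm5*, *Gstm3* and *Gstm4* lie close together.

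The alpha-class and membrane enzymes were high in Sertoli-like cells but not there alone. *Gsta4*, whose product conjugates the lipid peroxidation product 4-hydroxynonenal, had 378 CPM (367 to 388) in Sertoli-like cells and 128 CPM (124 to 131) in the other cells, a log2 ratio of 1.53. *Mgst1*, an enzyme of the endoplasmic reticulum and the outer mitochondrial membrane, had 622 CPM (609 to 636) in Sertoli-like cells and 150 CPM (146 to 153) outside them, a log2 ratio of 2.02. *Mgst3* had 233 CPM (225 to 242) in them and 64.7 CPM (62.3 to 67.2) outside, a log2 ratio of 1.77. Sertoli-like cells held 48.1% of the UMIs of *Gsta4*, 56.6% of those of *Mgst1* and 53.0% of those of *Mgst3*.

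The remaining genes were low in all classes. *Gstp1*, the pi-class gene, had 19.4 CPM (17.1 to 21.9) in Sertoli-like cells and 22.8 CPM (21.3 to 24.3) elsewhere. *Gsto1*, whose product reduces dehydroascorbate, had 28.3 CPM (25.5 to 31.4) in Sertoli-like cells and 43.0 CPM elsewhere, and was highest in the coelomic epithelium-like class, with 90.4 CPM (79.5 to 102), an interval that overlaps that of the immune-like class (47.2 to 92.4).

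**Figure D3:**
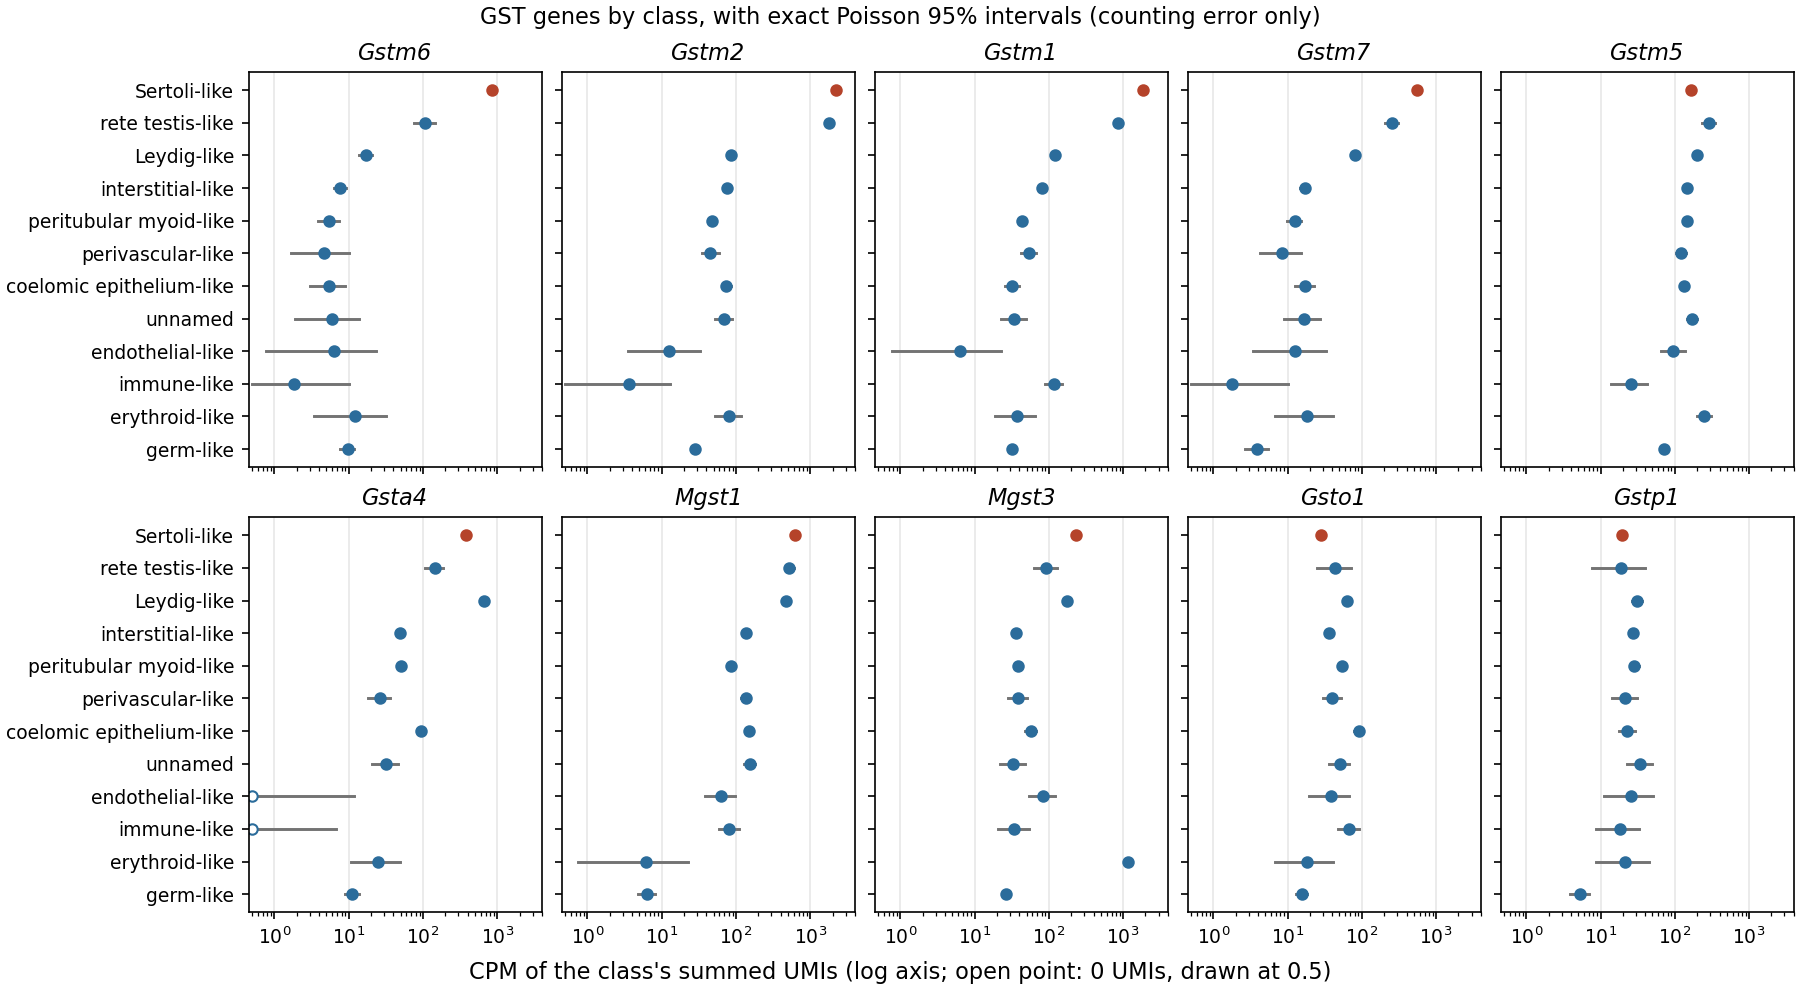
Level of each gene in the 12 classes, in CPM on a log axis, with exact Poisson 95% intervals as bars (hidden where shorter than the point); Sertoli-like cells are in red, and an open point stands for 0 UMIs. The first 4 panels fall from Sertoli-like cells through the rete testis-like class to the rest, whereas the points of *Gstp1* lie between 5.22 and 34.1 CPM in all classes.

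Leydig-like cells came as a pair of clusters. Cluster 8 with 129 cells was led by the steroidogenic genes *Cyp11a1*, *Cyp17a1* and *Star*, and cluster 6 with 188 cells by *Nppc* and *Vsnl1*, with hemoglobin genes among its 10 leading genes. *Gsta4* reached its highest level in cluster 8, with 998 CPM (964 to 1033), and had 235 CPM (217 to 255) in cluster 6. It was seen in 100% of the cells of cluster 8, in 98.4% when each cell was thinned to 5000 UMIs, and in 57.8% of those of cluster 6 at that depth.

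*Mgst1* had 640 CPM (612 to 668) in cluster 8, against 626 CPM (613 to 640) in Sertoli-like cluster 0, intervals that overlap, and 275 CPM (255 to 296) in cluster 6. *Mgst3* likewise had 258 CPM (241 to 276) in cluster 8 and 68.8 CPM (59.1 to 79.7) in cluster 6. Of the mu-class members, *Gstm1*, *Gstm5*, *Gstm6* and *Gstm7* were higher in cluster 8 than in cluster 6, with intervals that were apart. *Gstm7* had 121 CPM (110 to 134) in cluster 8 and 29.9 CPM (23.6 to 37.4) in cluster 6. In the same order *Gstm5* had 265 CPM (247 to 283) and 116 CPM (103 to 130), and *Gstm6* 23.9 and 8.55 CPM. For *Gstm1*, with 134 and 107 CPM, the lower bound in cluster 8 was 122 CPM and the upper bound in cluster 6 was 121 CPM. *Gstm2* had 87.0 CPM (77.1 to 97.8) in cluster 8 and 85.9 CPM in cluster 6, the latter inside the interval of the former. Against all other cells outside the Sertoli-like class, 6 of the 10 genes were at least 2-fold higher in cluster 8, namely *Gstm5*, *Gstm6*, *Gstm7*, *Gsta4*, *Mgst1* and *Mgst3*, where 7.33% of genes were, and the median log2 ratio was 1.08 over the 10 and -0.31 over all genes tested.

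In the rete testis-like class, the duct cells that join the cords to the outside, *Gstm2* had 1778 CPM (1645 to 1920), *Gstm1* 859 CPM (767 to 959) and *Gstm7* 252 CPM (203 to 309). *Gstm6* had 106 CPM (75.2 to 145), a lower share of its Sertoli-like level than for the other 3. *Mgst1* had 526 CPM (454 to 605) and *Gstm5* 285 CPM (233 to 345), the highest value of *Gstm5* in any class, though its interval overlapped that of the erythroid-like class. Here 6 of the 10 genes were at least 2-fold higher than in the other cells outside the Sertoli-like class, where 8.07% of genes were, with a median log2 ratio of 1.43 against -0.08 over all genes tested. The class had 26 cells, rested on 3 of its 5 markers, and carried the Sertoli genes *Amh*, *Aard*, *Cst9*, *Defb36* and *Etd* at 28.0% of their summed Sertoli-like level. Its values moved with the choice of cells, *Gstm2* to 441 CPM with each cell classed by itself and 1079 CPM at resolution 0.4, and *Gstm6* to 56.7 and 46.6 CPM. *Gstm5* was instead highest in Leydig-like cells with each cell classed by itself or the doublet rate doubled. With mitochondrial, ribosomal-protein and hemoglobin genes left out of the total, it was highest in erythroid-like cells.

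Germ-like cells were at the low end. Against the other cells outside the Sertoli-like class, 9 of the 10 genes were at least 2-fold lower in germ-like cells, where 24.1% of genes were, and the exception was *Gstm6*. Over all cells outside the Sertoli-like class *Gstm6* had 9.55 CPM (8.64 to 10.5). The 5 CPM added thus left it little room to fall 2-fold. The median log2 ratio was -1.45 over the 10 and -0.22 over all genes tested. *Mgst1* had 6.36 CPM (4.8 to 8.25) in germ-like cells, *Gsta4* 11.1 CPM (9.03 to 13.6) and *Gstm7* 3.86 CPM (2.67 to 5.39). *Gstm5* had 72.6 CPM there (67.1 to 78.5), lower than in all classes but the immune-like one, with an interval that overlaps that of the endothelial-like class. *Gstm6* had 9.65 CPM (7.71 to 11.9) from 85 UMIs, of which 1 cell held 21, and 7.31 CPM (5.63 to 9.33) without that cell.

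In the erythroid-like class of 18 cells *Mgst3* had 1168 CPM (1054 to 1292), the highest value of any class, and was seen in 100% of the cells. It was the single member at least 2-fold higher there, where 5.36% of genes were, and the median log2 ratio was -0.18 over the 10 and -0.67 over all genes tested. *Mgst1*, its relative, had 6.17 CPM (0.747 to 22.3) from 2 UMIs. The level of *Mgst3* depended on which cells were counted as erythroid, and was 291 CPM when the 10 genes were left out of clustering. In the same 18 cells it was 2125 CPM when mitochondrial, ribosomal-protein and hemoglobin genes were left out of the total. The erythroid-like class was the highest for *Mgst3* in all 15 alternatives, though those that changed only the CPM added or the minimum of UMIs could not alter it.

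In the immune-like class of 35 cells *Gstm1* had 116 CPM (89.3 to 148) while *Gstm2* had 3.62 CPM (0.439 to 13.1). Of the 64 UMIs of *Gstm1* in that class, 39 came from 1 cell, and without it the level was 48.3 CPM (31.2 to 71.3). Over the alternative settings it ran from 78.4 CPM to 361 CPM, the latter with outliers cut at 5 deviations. *Gsta4* had 0 UMIs in the immune-like and the endothelial-like class, with upper 95% bounds of 6.68 and 11.7 CPM.

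The order of the classes was read for each gene from these intervals, which leave out the spread between cells. A single cell could move a small class by more. Without its top cell, *Gstm1* in the rete testis-like class had 733 CPM (646 to 828), against 859 CPM (767 to 959). The words apart and overlap refer to the intervals alone. For *Gstm1*, *Gstm2*, *Gstm6* and *Gstm7* the Sertoli-like class came first, followed by the rete testis-like and then the Leydig-like class, each apart from the next lower, except that the Leydig-like class overlapped the class below it for *Gstm1*, *Gstm2* and *Gstm6*. *Mgst1* also led in Sertoli-like cells, but its rete testis-like and Leydig-like intervals overlapped. For *Gsta4* the order was Leydig-like, Sertoli-like, rete testis-like and coelomic epithelium-like, all apart. For *Gstm5* the 4 highest classes could not be told apart from their next neighbour, and for *Gstp1* the 10 highest could not.

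RNA released from broken Sertoli cells can enter droplets that hold other cells. As a measure of Sertoli RNA in other classes, the tracers *Amh*, *Aard*, *Cst9*, *Defb36* and *Etd* were summed. The sum cannot tell free RNA from doublets that were not removed. It came to 6850 CPM in Sertoli-like cells, 55.7 CPM in interstitial-like cells, 44.1 CPM in germ-like cells and 38.2 CPM in Leydig-like cells. Scaling each Sertoli-like level by the same ratio gives the level that such RNA would carry if all its genes kept 1 ratio. For *Gstm6* in interstitial-like cells the scaled level was 6.97 CPM and the measured one 7.67 CPM (6.26 to 9.29), a ratio of 1.1, and the interval held the scaled level. The ratio for *Gstm6* was 1.23 in peritubular myoid-like and 0.905 in perivascular-like cells. The tracers themselves did not keep 1 ratio. In interstitial-like cells *Aard* had 32.3 CPM, against 2424 CPM in Sertoli-like cells. *Amh* had 9.14 against 1969 CPM and *Cst9* 12.0 against 2056 CPM. *Aard* thus weighed most in the interstitial-like sum, and the ratio of *Gstm6* there depends on it. Other sets of tracers were not tried.

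In interstitial-like cells *Gstm1* was measured at 5.49 times its scaled level, *Gstm2* at 4.3 times and *Gstm7* at 3.77 times. In Leydig-like cells the ratio was 12.0 for *Gstm1*, 7.06 for *Gstm2*, 26.2 for *Gstm7* and 3.58 for *Gstm6*. In the rete testis-like class, where the scaled level of *Gstm6* was 240 CPM, the ratio was 0.44 for *Gstm6* and 2.88 for *Gstm2*. There *Aard* had 1241 CPM, against 2424 CPM in Sertoli-like cells, but *Amh* 206 against 1969 CPM and *Etd* 29.8 against 344 CPM. The scaled levels in this class therefore depend on the tracers summed. The tracers summed to 1919 CPM in this class, against 55.7 CPM in interstitial-like cells. How much of the 1919 CPM was free RNA was not tested. The ratios in this class thus cannot be read as ratios to free RNA. Germ-like cells had *Gstm7* at 1.08 times its scaled level and *Gstm6* at 1.75 times. The immune-like class had *Gstm2* at 0.296 times its scaled level and *Gstm1* at 11.4 times. These ratios rest on 2 UMIs of *Gstm2* and on 64 of *Gstm1*, of which 1 cell held 39.

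**Figure D4:**
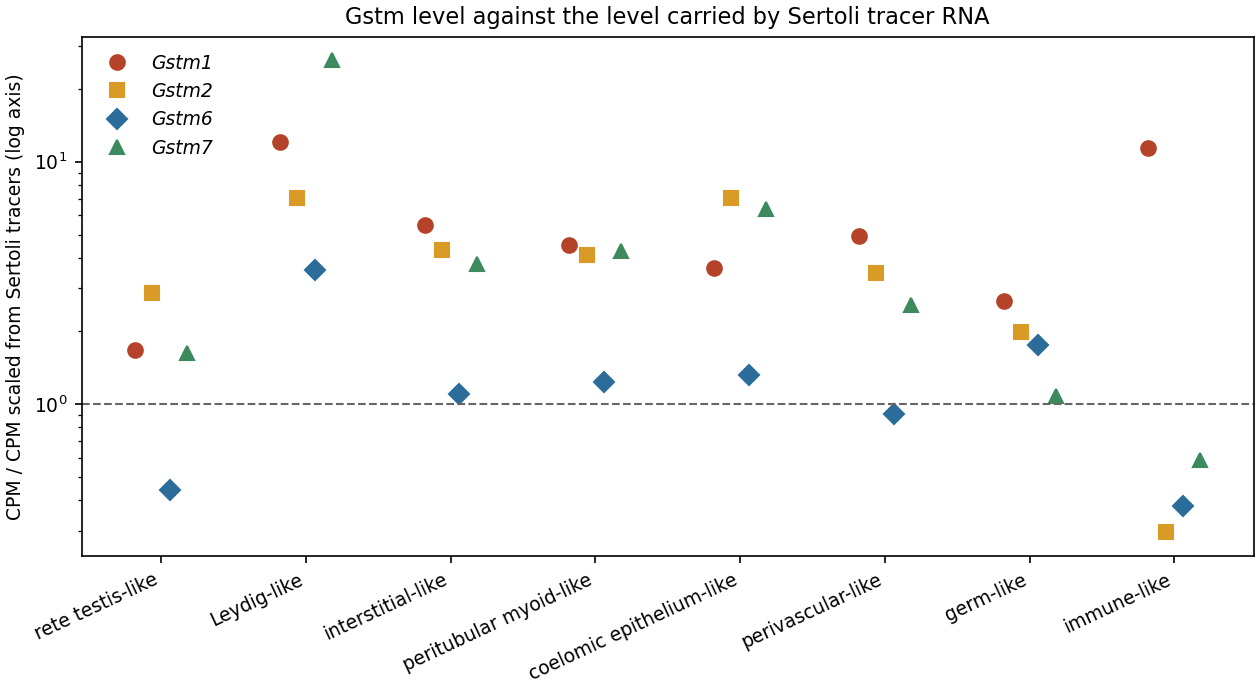
Measured level of 4 mu-class genes over the level scaled from 5 Sertoli tracer genes, on a log axis, in 8 classes; the dashed line marks equality. *Gstm6* (diamonds) lies near the line in interstitial-like, peritubular myoid-like, coelomic epithelium-like and perivascular-like cells, where the other genes lie above it.

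Shares of cells were compared at equal depth. Sertoli-like cells had a median of 14069 UMIs per cell, interstitial-like cells 9337 and germ-like cells 36191, so cells were thinned to 5000 UMIs, which left out 67 Sertoli-like cells, 62 interstitial-like cells and 4 germ-like cells. *Gstm6* was then seen in 91.4% of Sertoli-like cells, 3.25% of interstitial-like cells and 4.88% of germ-like cells, and before thinning in 95.6% (94.1% to 96.9%), 5.68% (4.51% to 7.05%) and 20.4% (15.6% to 25.9%). *Gstm2* was seen in 99.9% of thinned Sertoli-like cells, 25.7% of interstitial-like cells, 13.0% of germ-like cells and 3.12% of immune-like cells, which had a median of 14975 UMIs and the lowest level of the gene. *Gstm1*, *Gstm2*, *Gstm6* and *Gstm7* were all seen together in 83.0% of 852 Sertoli-like cells, in 34.6% of the 26 rete testis-like cells, in 0.955% of 314 Leydig-like cells and in 0.386% of 1294 interstitial-like cells.

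**Figure D5:**
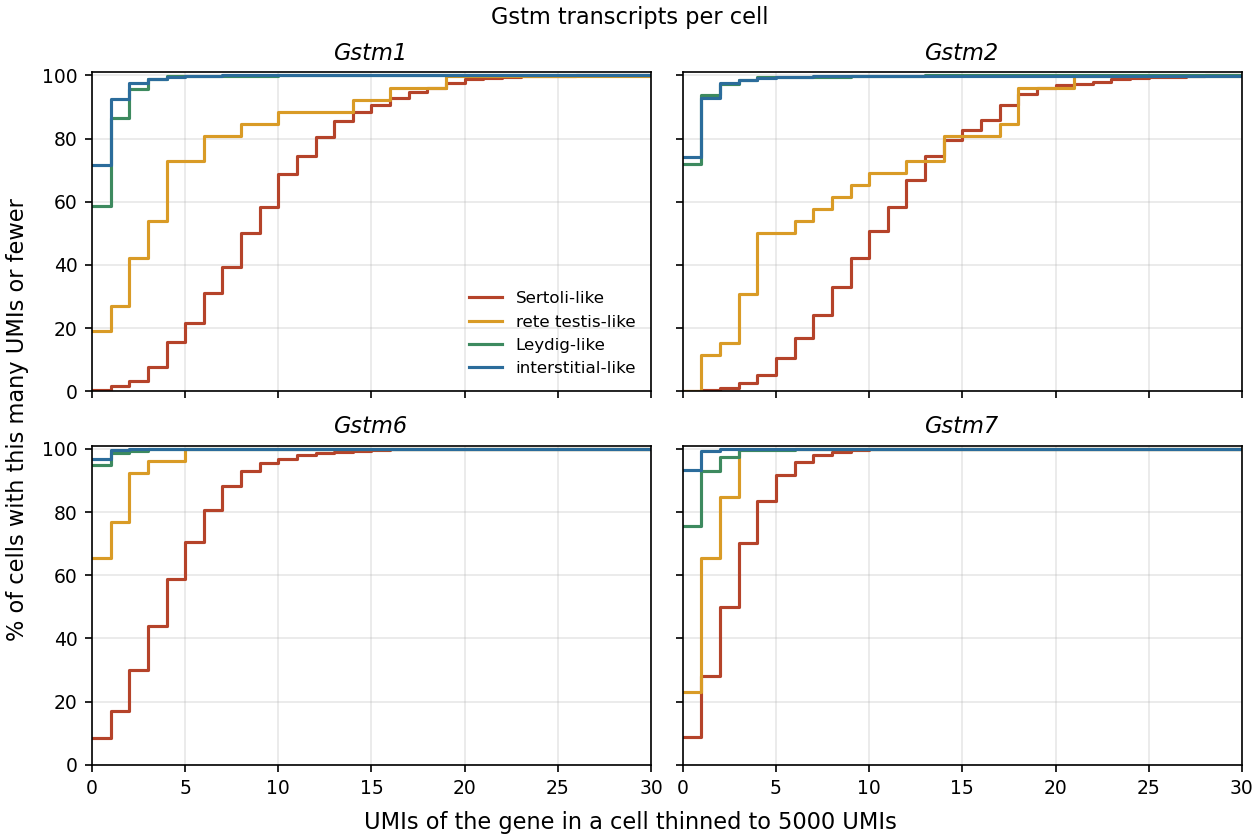
Share of cells with a given number of UMIs or fewer, for 4 mu-class genes in 4 classes, after thinning each cell to 5000 UMIs. The curves of Sertoli-like cells rise late, those of interstitial-like and Leydig-like cells start above 50%, and the rete testis-like curves start between them, except for *Gstm2*, which every rete testis-like cell held; for *Gstm2* their curve crosses the Sertoli-like one at higher counts.

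Within Sertoli-like cluster 0, at 5000 UMIs per cell, the genes were spread over nearly all of the 840 cells. *Gstm2* had a mean of 11.0 UMIs per cell, with a lowest value of 1 and a highest of 28, and *Gstm1* a mean of 9.03, with 1 cell at 0. *Gstm6* had a mean of 4.2 and was at 0 in 70 cells, and *Gstm7* a mean of 2.76 and was at 0 in 74. The variance over the mean, which is near 1 where cells differ by counting alone, was 2.11 for *Gstm1*, 1.95 for *Gstm2*, 1.9 for *Gstm6* and 1.29 for *Gstm7*, and 3.4 for *Amh* and 3.35 for *Ptgds* in the same cells.

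From cell to cell the levels of these genes were only weakly related. Over the 840 cells Pearson's r was 0.04 between *Gstm1* and *Gstm2*, -0.01 between *Gstm1* and *Gstm6*, 0.04 between *Gstm2* and *Gstm6*, and 0.17 between *Gstm2* and *Gstm7*, the highest of all pairs of members. These are descriptions of cells of 1 library, and counting noise lowers such values.

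By the phase called from cell cycle genes, the 464 cells of cluster 0 in G1 had 1827 CPM of *Gstm1* (1793 to 1861), the 202 in S phase 1525 CPM (1483 to 1569) and the 190 in G2/M 2071 CPM (2024 to 2119). *Gstm2* followed another order, with 2351 CPM (2313 to 2390) in G1, 2089 CPM (2038 to 2140) in S phase and 2017 CPM (1970 to 2064) in G2/M. *Mgst1* had 681 CPM (661 to 702) in G1 and 565 CPM (540 to 590) in G2/M. Cluster 11, with a median of 3181 UMIs per cell, had 2460 CPM of *Gstm1* (2268 to 2663), 1127 of *Gstm6* (999 to 1267) and 428 of *Mgst1* (351 to 518), against 1821, 852 and 626 CPM in cluster 0. The part of depth in these differences was not tested.

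For each member, the genes with the most similar profile were sought over the 13 clusters of at least 30 cells, by Pearson's r of log2(CPM + 5), among genes with at least 500 UMIs. All points come from 1 library and Sertoli-like clusters weigh heavily in them. *Gstm6* was most similar to *Ptgds* (0.994), *Map3k21* (0.992) and *Tubb3* (0.988). *Gstm1* was most similar to *Cited1* (0.968), *Abtb2* (0.968) and *Hsd17b1* (0.966), *Gstm2* to *Ppm1a* (0.969), *1700030K09Rik* (0.967) and *Arpc1a* (0.961), and *Gstm7* to *Scrn2* (0.978), *Etnk2* (0.976) and *Akr1b7* (0.974). For *Gsta4* they were *Cdk16* (0.959), *Abat* (0.953) and *Adgrl1* (0.949), for *Mgst1* *Rnf5* (0.955), *Ttyh3* (0.937) and *Ndfip1* (0.936), and for *Mgst3* *Efhd1* (0.967), *Bcat2* (0.964) and *Rnf181* (0.963). For *Gstm5* they were *Upp2* (0.931), *Ttc23* (0.916) and *1110065P20Rik* (0.895), for *Gsto1* *Slc48a1* (0.889), *Tkt* (0.868) and *Cd82* (0.846), and for *Gstp1* *Vps4a* (0.962), *Slc50a1* (0.96) and *Cldnd1* (0.953).

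Other glutathione S-transferase and related genes, genes of glutathione metabolism, glutaredoxins, thioredoxins and peroxiredoxins, and NRF2 regulators and targets were counted together. Of the 73 genes on these lists, 59 had at least 100 UMIs. In Sertoli-like cells 10 of the 59 were at least 2-fold higher, where 8.72% of all genes were, and 5 at least 2-fold lower, where 10.4% of all genes were. Among the higher ones were *Gsta2*, an alpha-class gene with 89.5% of its 3′ stretches its own and the rest shared with *Gsta1* and other copies, which had 66.6 CPM in Sertoli-like cells against 21.2 CPM outside, and *Gstt3* and *Ptges*. Of the 11 regulators and targets of NRF2, the transcription factor that induces detoxification genes, 5 were higher, where 8.72% of all genes were. They were *Nfe2l2*, which encodes NRF2 itself (80.3 against 31.4 CPM), *Hmox1* (92.5 against 33.1 CPM), *Me1* (794 against 149 CPM), *Mafk* and *Abcc1*. *Nqo1* had 9.93 and 7.83 CPM. Most of those higher were as high or higher in another single class. *Me1* had 795 CPM in Leydig-like cells and *Hmox1* 99.6 CPM in the immune-like class. *Abcc1* had 32.5 CPM in the rete testis-like class, against 25.6 CPM in Sertoli-like cells. *Mafk* had 24.7 CPM in Sertoli-like and in erythroid-like cells. *Nfe2l2* was highest in Sertoli-like cells.

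None of the 8 genes for glutathione synthesis, recycling and cystine uptake passed 2-fold in Sertoli-like cells in either direction. Under other settings single genes did, *Gclm* being lower with outliers cut at 5 deviations or not cut, *Slc7a11* lower with 1 CPM added and *Gsr* higher by the mean of single-cell CPM. *Gclc* and *Gclm*, the subunits of the rate-limiting enzyme of synthesis, had log2 ratios of -0.56 and -0.79 between Sertoli-like and other cells. Germ-like cells, low in 9 of the 10 transferases, had *Gclc* at 47.4 CPM, *Gclm* at 131 CPM and *Gsr*, glutathione reductase, at 79.7 CPM, all at least 2-fold above the other cells outside the Sertoli-like class. Sertoli-like cells, left out of that comparison, had 71.4 CPM of *Gsr*. In all, 9 of the 59 listed genes were at least 2-fold higher in germ-like cells, where 12.5% of all genes were, and 21 lower, where 24.1% were.

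Leydig-like cluster 8 had 16 of the 59 at least 2-fold higher, where 7.33% of all genes were, and 5 lower, where 18.3% were. *Gsta3*, an alpha-class gene, had 172 CPM (158 to 187) there and 32.3 CPM (25.7 to 40.0) in cluster 6. *Gsta2* went the other way, with 50.6 CPM (43.2 to 59.0) in cluster 8 and 147 CPM (133 to 163) in cluster 6. *Gpx4*, the peroxidase that protects membrane lipids, had 1009 CPM in cluster 8 against 464 CPM in the other cells outside the Sertoli-like class. In the erythroid-like class 15 of the 59 were higher, where 5.36% of all genes were, and 19 lower, where 35.5% were, with *Gpx1* at 3591 CPM against 219 CPM and *Gclm* at 487 CPM against 53.7 CPM. *Gpx3*, the secreted peroxidase, was among the genes at least 2-fold lower in Sertoli-like cells, with 2.52 CPM against 45.7 CPM.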

How the data were processed

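RNA of single cells was captured with 10x Genomics 3′ chemistry (v3). The values are UMI counts per gene and barcode, which the authors deposited without normalization after aligning to mm10 (GRCm38) joined to a YFP sequence with Cell Ranger. The processing notes name Cell Ranger 3.0.2 and 3.1.0, and the methods another version. The mutant library was not analysed here. The library held 72595083 UMIs in 5421 barcodes. Barcodes with under 200 genes (372) were dropped, then 204 doublets (4.04%), ranked on how many of their neighbours were simulated doublets, then 1026 cells beyond 3 median absolute deviations on UMIs, genes, mitochondrial or ribosomal-protein share. Cells were clustered with Seurat 5.3.0 and sctransform 0.4.2 in R 4.3.3, on 3000 variable genes and 30 components at resolution 0.8, with cell cycle and mitochondrial share regressed out. A cluster took a class if the mean log2 ratio of its markers was at least 1 and at least 3 markers were seen in at least 25% of its cells. A cluster of low depth, such as cluster 11, also needed a marker of the class among its 10 leading genes. No count model was fitted, since cells of 1 library are not replicates. Genes with at least 100 UMIs in kept cells were compared, 5 CPM being added before each ratio. Gene positions, coding sequences and 3′ ends came from GENCODE and promoters from RefSeq. Sums and intervals were computed with scipy 1.17.1 under Python 3.11.15. They were tested on simulated data in which cells of a group differed by depth and counting error alone. The real cells varied more, so that test does not cover the spread between cells. The members, marker lists and gene lists were chosen with earlier results of these data known. All members are named, as are the listed genes past 2-fold that are given as examples and, for each member, the 3 genes of most similar profile. Other filters, doublet rates, resolutions, class assignments and scalings were tried as alternatives.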

Additional observations from a re-analysis of the deposited data

Results flagged for a closer look

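The 372 barcodes dropped for having under 200 genes hold 1409901 UMIs, of which 46.8% are hemoglobin, and enter no comparison above. They held 30 UMIs of *Gstm1* (21.3 CPM, 14.4 to 30.4), 21 of *Gstm2* (14.9 CPM, 9.22 to 22.8) and 7 of *Gstm6* (4.96 CPM, 2.0 to 10.2). *Mgst3* had 8 UMIs (5.67 CPM, 2.45 to 11.2), against 1168 CPM in the erythroid-like class. Why these levels differ was not tested. *Mgst1* had 7 UMIs, *Gstm5* 6 and *Gsta4* 4. *Gstm7* and *Gsto1* had 1 UMI each and *Gstp1* 0. The Sertoli gene *Aard* had 24 UMIs in the same barcodes, *Cst9* 12 and *Amh* 9. Which cells these transcripts came from was not tested.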

How the results depend on the processing

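Under all 15 alternatives that were run, 7 of the 10 genes stayed at least 2-fold higher in Sertoli-like cells, the same 7 each time. Those that changed only the minimum of UMIs could not alter this, since each of the 10 had at least 1205 UMIs. *Gstm6* stayed the single member under 2 times the level scaled from the Sertoli tracers in interstitial-like cells, with a ratio from 0.977 to 1.16. No alternative varied the tracers, and those that changed only the CPM added or the minimum of UMIs could not alter this ratio. The log2 ratio of Sertoli-like to all other cells ran from 4.89 to 6.35 for *Gstm6*, 4.36 to 5.05 for *Gstm2*, 4.19 to 4.67 for *Gstm1* and 3.71 to 4.48 for *Gstm7*. The counts over the lists of glutathione, thioredoxin, peroxiredoxin and NRF2 genes depended on the CPM added and on the filter. Of the genes at least 2-fold higher, 10 became 3 with 20 CPM added (*Gsta2*, *Hmox1* and *Me1*). With 20 CPM added 4.78% of all genes tested were higher, against 8.72% in the main setting. The 10 became 5 with the stricter filter on low counts, where 8.83% of the genes tested were higher. Of those lower, 5 became 8 with 1 CPM added, 1 with 20 CPM added (*Gpx3*) and 2 with the stricter filter, where fewer genes were tested. The share of all genes that were lower was not computed for these settings. The share of Sertoli-like cells with a UMI of *Gstm6*, 91.4% at 5000 UMIs per cell, was 84.6% at 3000 and 95.6% without thinning. No member's log2 ratio of Sertoli-like to all other cells changed sign. Small classes gave the least stable values, and with the doublet rate doubled no rete testis-like class of at least 10 cells remained. No paired analysis was possible because there was 1 library.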
